A study of Mus musculus with 36 samples.

Results

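Respiratory complex I genes were followed in mouse splenic dendritic cells (DCs) after injection of poly IC, a synthetic double-stranded RNA. The genes were all those on the array whose annotation symbol starts with Nduf, which covers the nuclear-encoded subunits and most assembly factors. The array held 40 such genes on 53 probes. Of these, 39 were detected (detection p under 0.05) on at least 3 of the 36 arrays and were tested together with all 9606 genes that passed the same filter. The remaining one, Ndufs1, a core subunit with iron-sulfur clusters, was detected on none. The 39 genes comprised 5 core subunits, 12 accessory subunits of the Ndufa series (including Ndufab1), 10 of the Ndufb series, 5 other accessory subunits, 5 assembly factors, Ndufa4, which is now placed in complex IV, and Ndufs5-ps, annotated as a pseudogene of Ndufs5, whose probe may read its parent gene. The subunits encoded by mitochondrial DNA were not analysed here.

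Complex I takes electrons from NADH, passes them to ubiquinone and pumps protons across the inner mitochondrial membrane, and so opens the respiratory chain. Its core subunits hold the flavin and the iron-sulfur clusters, the accessory subunits surround and stabilise them, and assembly factors build the complex without staying in it. DCs activated through innate receptors are known to turn from respiration towards glycolysis.

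The cells were CD11chi CD3- DX5- B220- DCs of C57BL/6 background, sorted on CD45.2 from bone marrow chimeras that carried WT together with IFNAR-/- or PRR-/- marrow. IFNAR-/- cells lack the receptor for type I interferon, and PRR-/- cells lack both MDA5 and TLR3, the receptors for poly IC. In such chimeras the mutant DCs share their host with WT cells and can meet what those cells secrete. The arrays covered PRR-/- (5), IFNAR-/- (5) and WT DCs (8) taken 4 h after 50 µg poly IC, IFNAR-/- (3) and WT DCs (6) taken at 14 h, and unstimulated DCs (9), for which the labels give the treatment as none and no genotype. The study had PBS-injected chimeras, with WT and mutant DCs, and poly IC-injected PRR-/- mice as negative controls and pooled them, so the unstimulated arrays may mix genotypes. It used mice at 7 to 8 weeks of age and samples that pool 6 mice. Replicates 1 and 2 of the PRR-/- 4 h, IFNAR-/- 4 h and unstimulated groups lay closer to each other than any other 2 arrays of a group, and each pair was averaged into 1 sample, which left 33 samples. The p-values measure the spread between these samples, which may be in part technical. The array signal of a gene in sorted cells cannot tell fewer cells of a type from less RNA per cell.

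Between 10428 and 12326 of the 25697 probes were detected per sample. WT replicate 6 at 14 h stood apart from the rest of its group, so the counts of calls, the list medians and the differences of named genes at 14 h are given with and without it. Unstimulated replicate 9 was the highest of its group for these genes. Markers of conventional DCs were present in all groups, with a summed signal of 8 genes between 60500 and 126000, of which Flt3 was detected on 1 array. Most of this sum came from H2-Ab1 and Cd74, whose group means were 15.53 to 15.75 (log2), against 6.49 to 10.03 for the others. The sum thus says little about the other markers. Of the 7 genes tested, Cd209a and Xcr1 were lower by 2-fold than in unstimulated DCs at 14 h. They were at -2.90 and -1.30 in IFNAR-/- DCs (0.802% of all genes were called lower). In WT DCs they were at -2.65 and -1.24 (4.77%), or -2.52 and -1.11 without WT replicate 6 (3.46%). At 4 h, Cd209a was at -1.67 in PRR-/-, -1.56 in IFNAR-/- and -1.69 in WT DCs (2.42%, 1.43% and 2.39%). Xcr1 was at -1.12 in IFNAR-/- DCs at 4 h. Of the markers not called at 14 h, Itgax had mean levels of 9.20 in IFNAR-/-, 8.44 in WT and 8.58 in unstimulated DCs. Zbtb46 had 9.10, 10.03 and 9.54. Markers of other cells moved with the groups at both times. The summed non-normalized signal of 5 monocyte genes was 42900 to 44300 in IFNAR-/- DCs at 14 h, 698 to 5360 in WT DCs at 14 h and 7490 to 14700 in unstimulated DCs. The summed signal of 7 red pulp macrophage genes was 8840 to 11300 in IFNAR-/- DCs at 14 h, 3190 to 6100 in WT DCs at 14 h and 1790 to 2900 in unstimulated DCs, and that of 6 neutrophil genes was 3110 to 13100 in IFNAR-/- DCs at 14 h, 466 to 2520 in WT DCs at 14 h and 413 to 846 in unstimulated DCs. In IFNAR-/- over WT DCs at 14 h, 3 of 4 monocyte, 4 of 6 macrophage and 2 of 5 neutrophil genes tested were higher by 2-fold (4.71% of all genes). At 4 h the summed signal of the macrophage genes was 5060 to 8840 in PRR-/-, 2960 to 3970 in IFNAR-/- and 1900 to 5360 in WT DCs, and that of the monocyte genes 6660 to 14000, 5930 to 9770 and 3420 to 9390. Against unstimulated DCs, 4 of 6 macrophage genes were higher by 2-fold in PRR-/- DCs and 2 of 6 in IFNAR-/- and in WT DCs, among them Hmox1 (3.24, 1.84 and 1.96). The shares of all genes called higher were 4.86%, 1.53% and 4.8%. In PRR-/- over WT DCs at 4 h, 3 of the 6 were higher (0.125% of all genes). Of the defining markers of these cells, Ccr2, Cd5l and Mmp8 were detected on no array. The part of these cells in the results below was not tested.

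To show the DNA next to these genes, RefSeq promoter windows (250 bases before the transcript start, build GRCm38.p6) were matched by symbol for 36 of the 40 genes and searched on both strands for 3 motifs. The core of the NRF1 motif, GCATGCGC, bound by a regulator of many respiratory chain genes, lay before 3 of the 36 genes (Ndufa6, Ndufa8 and Ndufaf4; 8.33%) and before 2.56% of the 27025 genes with a window. The core of the interferon-stimulated response element, in the form GAAANNGAA, lay before 5 (Ndufa9, Ndufb8, Ndufs3, Ndufs6 and Ndufv1; 13.9%) and before 8.18% of all genes, and the ETS motif CCGGAAGT lay before 0 of the 36 and before 3.23% of all genes. No motif contains another. The windows of Ndufaf4 (chr4:24897833-24898082, plus strand), Ndufa8 (chr2:36049339-36049588, minus strand) and Ndufs3 (chr2:90904722-90904971, minus strand) are printed because these genes recur in the results. The capitals mark the NRF1 core in Ndufaf4, where it lies on both strands and overlaps itself, and in Ndufa8, and the response element core, read on the opposite strand, in Ndufs3. A match of letters is a description and not a site shown to be bound.
Ndufaf4: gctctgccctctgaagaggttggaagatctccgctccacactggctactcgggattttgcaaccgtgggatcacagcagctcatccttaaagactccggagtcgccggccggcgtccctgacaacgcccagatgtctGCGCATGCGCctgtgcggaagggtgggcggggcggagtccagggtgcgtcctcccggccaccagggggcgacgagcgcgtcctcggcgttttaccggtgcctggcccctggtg
Ndufa8: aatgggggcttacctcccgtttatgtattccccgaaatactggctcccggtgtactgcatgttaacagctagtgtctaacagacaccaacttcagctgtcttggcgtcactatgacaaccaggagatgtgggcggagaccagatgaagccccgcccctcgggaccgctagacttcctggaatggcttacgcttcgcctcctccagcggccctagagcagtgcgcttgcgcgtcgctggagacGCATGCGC
Ndufs3: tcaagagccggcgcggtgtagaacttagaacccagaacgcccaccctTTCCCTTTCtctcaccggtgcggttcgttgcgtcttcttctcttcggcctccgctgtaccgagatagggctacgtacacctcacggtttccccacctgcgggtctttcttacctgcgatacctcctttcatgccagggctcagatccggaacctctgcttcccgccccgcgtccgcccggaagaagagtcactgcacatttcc

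At 14 h, complex I genes were higher in IFNAR-/- than in WT DCs almost throughout. Of the 39 genes, 19 were higher by at least 2-fold at an adjusted p under 0.05 and 0 were lower, where 4.71% of all genes were called higher. At the adjusted p alone, 30 were higher and 0 lower, against 17.9% of all genes called higher. The median difference of the 39 genes was 1.07 on the log2 scale, and that of all genes was 0.00. The Nduf genes were bright, with a median log2 level of 10.71 (percentile 87.9) against 7.72 for all genes. Here and below, the shares and medians of all genes thus include many dimmer genes, whose differences are understated near the floor. The 3 IFNAR-/- samples lay above all 6 WT samples for 28 of the 39 genes, against 15.1% of all genes. Without WT replicate 6, 8 genes were called at 2-fold (3.57% of all genes were called higher) and 27 at the adjusted p alone (16.3%), all of them among the genes called with it, and the median difference was 0.81. Fitted on the 14 h groups alone, 6 genes were called at 2-fold, and 2 by the methods' t-test. The shares of all genes under these settings are not given here, so these counts are read only beside the 19 of the main fit. The 8 genes called without replicate 6 were Ndufa5, Ndufa8, Ndufa12, Ndufaf4, Ndufb6, Ndufb8, Ndufc1 and Ndufc2.

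**Figure D1:**
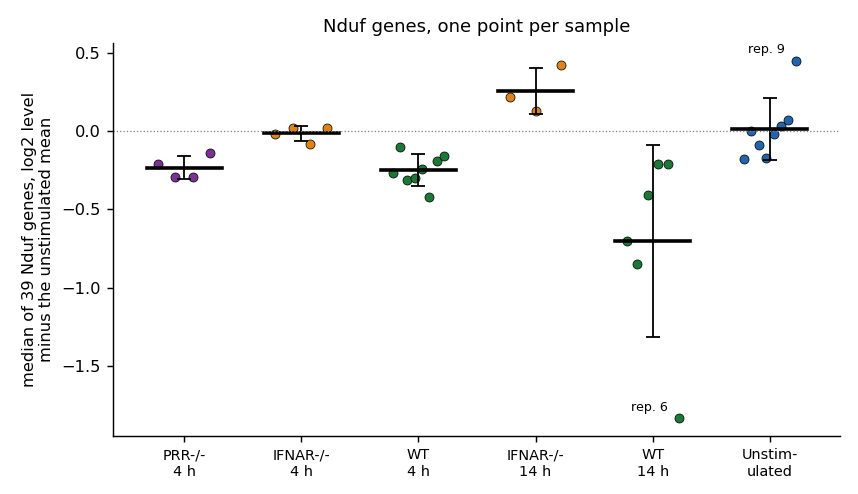
Median over the 39 Nduf genes of the log2 level minus the unstimulated mean, 1 point per sample (y axis, log2), for the 6 groups (x axis); the line and bar give the mean and SD. The 3 IFNAR-/- samples at 14 h sit between 0.13 and 0.42, above the 6 WT samples at 14 h, which run from -1.83 to -0.21.

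The per-sample medians of the 39 genes, relative to the unstimulated mean, were 0.22, 0.13 and 0.42 in IFNAR-/- DCs at 14 h. The 6 WT samples at 14 h had -0.70, -0.85, -0.41, -0.21, -0.21 and, in replicate 6, -1.83. The 2 groups did not overlap, and the WT samples differed among themselves by more than any other group (SD 0.61, against 0.15 in IFNAR-/- DCs). Counted by gene, 38, 37, 34, 30, 30 and 38 of the 39 genes lay below the unstimulated mean in WT replicates 1 to 6, and 12, 16 and 5 did so in the IFNAR-/- replicates. Each WT sample thus had most of the genes below the unstimulated mean, with replicate 6 farthest from it and replicates 4 and 5 nearest. The unstimulated samples had 28, 20, 28, 30, 21, 16, 16 and 4 genes below it (replicates 1-2 and 3 to 9). Their medians ran from -0.18 to 0.45, the highest in replicate 9. WT replicates 4 and 5 were thus close to unstimulated replicate 5 (30 genes, median -0.17).

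Among the core subunits, all 5 were higher in IFNAR-/- than in WT DCs at 14 h at the adjusted p, 2 of them by 2-fold. Ndufs8, a subunit with iron-sulfur clusters, differed by 1.12 ± 0.20 (SE, adjusted p = 6.06e-05) and Ndufs3, a subunit of the arm that faces the matrix, by 1.07 ± 0.19 (adjusted p = 6.54e-05). Leaving out WT replicate 6 gave 0.91 and 0.94, and no core subunit passed 2-fold. Ndufv2, which carries an iron-sulfur cluster beside the flavin subunit, had log2 levels of 11.84, 11.68 and 12.15 in IFNAR-/- DCs. Its levels in WT DCs at 14 h were 10.60, 11.35 and 11.62 (lowest, median, highest). The samples did not overlap, and the difference of 0.63 ± 0.15 (adjusted p = 0.00178), or 0.49 without WT replicate 6, stayed under 2-fold. Ndufv1, which binds NADH and the flavin, had levels of 11.85, 11.54 and 11.12 in IFNAR-/- DCs and of 10.77, 10.14, 10.59, 11.23, 10.50 and 10.62 in WT DCs at 14 h. For this gene WT replicate 6 lay inside the range of the others, and the difference was 0.86 with and without it.

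Among the accessory subunits, Ndufc1, a small subunit of the membrane arm, had log2 levels of 11.65, 11.56 and 11.44 in IFNAR-/- DCs at 14 h. The WT samples at 14 h had 10.28, 9.89, 10.35, 10.83, 10.36 and, in replicate 6, 7.56, or 170.5 in non-normalized signal, where the IFNAR-/- samples had 3550 to 4216. All IFNAR-/- samples lay above all WT samples, and the difference was 1.67 ± 0.37 (3.18-fold, adjusted p = 0.000643), or 1.21 without replicate 6 (adjusted p = 5.99e-07).

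Ndufa5, a subunit of the matrix arm, had levels of 9.74, 9.62 and 10.22 in IFNAR-/- DCs and of 6.99, 8.60 and 9.02 (lowest, median, highest) in WT DCs at 14 h, a difference of 1.45 ± 0.32 (adjusted p = 0.000565) and of 1.17 without replicate 6. Its dimmer probe differed by 0.74, so the size depended on the probe. Ndufa8, a subunit held by disulfide bonds on the intermembrane side, had the smallest adjusted p of the 39 genes. Its levels were 11.94, 11.83 and 12.11 in IFNAR-/- DCs and 9.74, 10.70 and 11.07 (lowest, median, highest) in WT DCs at 14 h, a difference of 1.35 ± 0.19 (adjusted p = 2.53e-06) and of 1.18 without WT replicate 6.

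In the Ndufb series, Ndufb8 had levels of 12.08, 12.07 and 12.96 in IFNAR-/- DCs and of 9.87, 10.94 and 12.01 (lowest, median, highest) in WT DCs at 14 h. The highest WT sample was replicate 5, just under the lowest IFNAR-/- sample, and the difference was 1.40 ± 0.33 (adjusted p = 0.00149), or 1.18 without replicate 6. Ndufb6, also of the membrane arm, had levels of 11.50, 11.32 and 11.60 in IFNAR-/- DCs, all above the 8.78, 10.34 and 10.63 (lowest, median, highest) of WT DCs at 14 h, with a difference of 1.37 ± 0.25 (adjusted p = 7.07e-05), or 1.10 without replicate 6. Its dimmer probe, detected on all 36 arrays, differed by 0.29 ± 0.084, so the call at 2-fold depended on the probe. This series was the most mixed of the subunits, since 4 of its 10 genes passed the adjusted p and 3 passed 2-fold. Ndufb5 differed by 1.27 (0.94 without replicate 6) with an SD of 0.90 among its WT samples, and did not pass (adjusted p = 0.0754).

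Ndufs6, an accessory subunit that carries zinc, had levels of 12.24, 12.15 and 12.28 in IFNAR-/- DCs and of 8.80, 11.16 and 11.67 (lowest, median, highest) in WT DCs at 14 h. The difference was 1.37 ± 0.33 (adjusted p = 0.00179), and 0.96 without replicate 6, whose level of 8.80 lay below the next WT sample at 10.86. Ndufc2 had levels of 11.45, 11.68 and 11.36 in IFNAR-/- DCs and of 8.70, 10.29 and 11.01 (lowest, median, highest) in WT DCs at 14 h. The groups did not overlap for either gene, and Ndufc2 differed by 1.35 ± 0.31 (adjusted p = 0.000992), or by 1.07 without replicate 6.

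Ndufa1 (1.34), Ndufa12 (1.29) and Ndufa4 (1.26) also passed 2-fold with all samples, and without WT replicate 6 they were at 0.85, 1.09 and 0.92. Ndufs5-ps differed by 1.30, and by 0.98 without that sample. The remaining genes called were Ndufa2, Ndufa3, Ndufa13, Ndufb3 and Ndufv3, at 1.08 to 1.24, and at 0.69 to 0.86 without it. Of the 3 probes of Ndufv3, 2 differed by 1.08 and 1.11 and the dimmest by -0.07. The genes that passed the adjusted p only with WT replicate 6 were Ndufa6, Ndufaf7 and Ndufb3. The genes that did not pass the adjusted p were Ndufab1, Ndufaf1, Ndufaf3, Ndufb2, Ndufb4, Ndufb5, Ndufb9, Ndufb10 and Ndufb11, of which Ndufab1, the mitochondrial acyl carrier protein, was detected on 14 arrays only and Ndufb4 on 27.

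**Figure D2:**
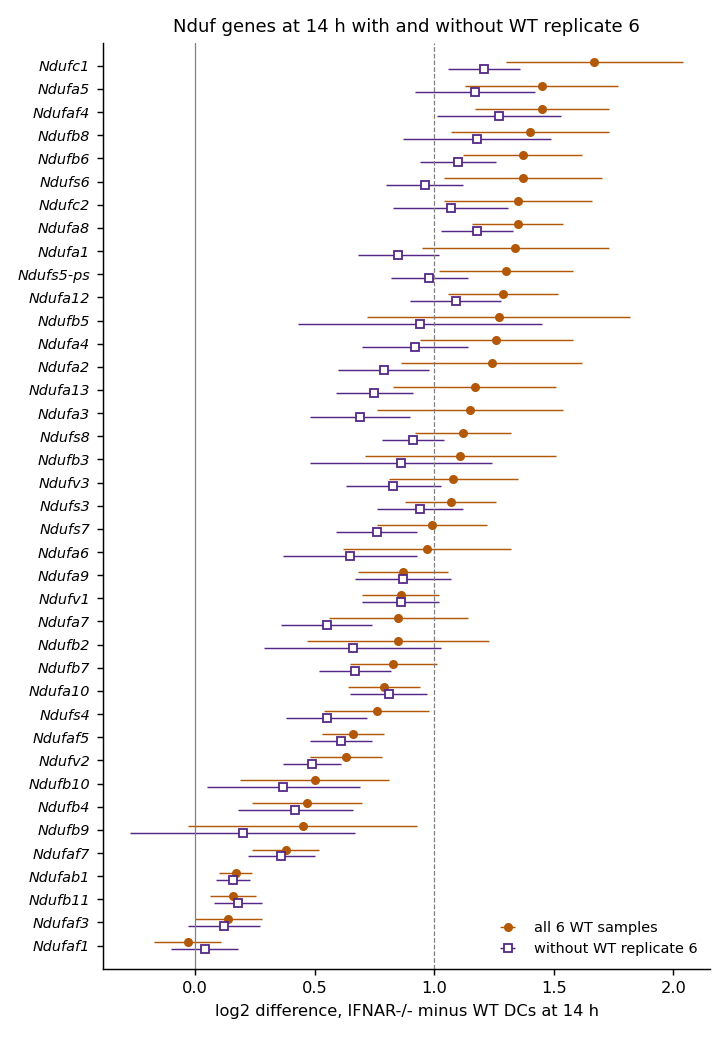
Log2 difference between IFNAR-/- and WT DCs at 14 h (x axis) for each of the 39 Nduf genes (y axis), with bars of 1 SE, using all 6 WT samples (filled circles) or leaving out WT replicate 6 (open squares); the dashed line marks 2-fold. Ndufc1 is at 1.67 and 1.21, while Ndufv1 and Ndufa9 barely move.

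Assembly factors split. Ndufaf4, which acts in the assembly of the membrane arm, differed by 1.45 ± 0.28 (adjusted p = 0.000141), and by 1.27 without WT replicate 6. Ndufaf5, which modifies a core subunit, differed by 0.66 ± 0.13 (adjusted p = 0.000229), and by 0.61 without it. Ndufaf7, a methyltransferase that acts on a core subunit, differed by 0.38 (adjusted p = 0.0343), or by 0.36 without WT replicate 6 (adjusted p = 0.062), whereas Ndufaf1 and Ndufaf3 differed by -0.03 and 0.14 (adjusted p = 0.955 and 0.56), or by 0.04 and 0.12. Of 7 further complex I genes without the Nduf name (such as the assembly factor genes Acad9 and Ecsit), 1 passed the adjusted p and 0 passed 2-fold, with or without replicate 6, with a median of 0.21, or 0.17 without it. Of all genes, 17.9% were called higher at the adjusted p alone and 4.71% at 2-fold.

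Each 14 h group was next compared with unstimulated DCs. Of the 39 genes, 12 were lower in WT DCs at 14 h by at least 2-fold and 0 were higher, where 4.77% of all genes were called lower, and 30 were lower at the adjusted p alone (27.7% of all genes), with a median of -0.72. In IFNAR-/- DCs at 14 h, 0 of the 39 genes passed 2-fold in either direction (1.68% of all genes were called higher and 0.802% lower). At the adjusted p alone 1 was higher (Ndufa8, 0.69 ± 0.18, adjusted p = 0.012; 5.32% of all genes) and 1 lower (Ndufb11, -0.48 ± 0.093; 5.41%), with a median of 0.23 (7 higher and 2 lower at an unadjusted p under 0.05 by limma). WT replicate 6 is not in this comparison but enters the spread that limma estimates over all groups, and in the fit without it 7 genes were higher at the adjusted p alone, where 6.11% of all genes were called higher. They were Ndufa3, Ndufa8, Ndufb6, Ndufb7, Ndufc1 (0.66, adjusted p = 0.00178 against 0.291 with it), Ndufs5-ps (0.78, adjusted p = 0.00038 against 0.0583) and Ndufs7. Both comparisons used the same unstimulated samples. The sign was below 0 in WT DCs and above 0 in IFNAR-/- DCs for 27 of the 39 genes.

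The 12 genes called lower in WT DCs at 14 h included core and accessory subunits and an assembly factor. Ndufc2 had the largest change, -1.53 ± 0.24 (2.88-fold, adjusted p = 4.45e-06), and its 6 WT samples lay below all 8 unstimulated samples, which ran between 11.35 and 12.08. Ndufa6, a matrix-side accessory subunit, differed by -1.45 ± 0.27 (adjusted p = 4.94e-05). Ndufb8 (-1.22), Ndufa12 (-1.07), Ndufa4 (-1.07), Ndufa2 (-1.05), Ndufa5 (-1.05), Ndufc1 (-1.01) and Ndufs6 (-1.01) followed with overlapping samples. The dimmer probe of Ndufa5 was at -0.16 ± 0.23 and that of Ndufc1 at -0.72 ± 0.19, so the 2-fold calls of these genes depended on the probe. The core subunits Ndufv1 (-1.07 ± 0.12, adjusted p = 2.21e-08) and Ndufs3 (-1.06 ± 0.15, adjusted p = 7.03e-07) fell with no overlap.

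In all, 7 of the 39 genes had every WT sample at 14 h below every unstimulated sample, against 8.62% of all genes. They were Ndufa10, Ndufaf4, Ndufaf7, Ndufb11, Ndufc2, Ndufs3 and Ndufv1. Ndufb11, an accessory subunit of the membrane arm, was lower in the IFNAR-/- groups too. Its levels were 6.58, 6.82 and 6.92 in IFNAR-/- DCs at 14 h, 6.49 to 6.74 in WT DCs at 14 h and 7.03 to 7.46 in unstimulated DCs.

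When WT replicate 6 was left out, the comparison of WT DCs at 14 h with unstimulated DCs kept 5 of the 12 calls (Ndufa6, Ndufaf4, Ndufb8, Ndufc2 and Ndufv1) where 3.46% of all genes were called lower, and 24 of the 30 at the adjusted p alone (26% of all genes), with a median of -0.48. The 5 were then at -1.24 (Ndufc2), -1.13 (Ndufa6), -1.08 (Ndufaf4) and -1.06 (Ndufv1), with Ndufb8 just past 2-fold. The other 7 were at -0.94 (Ndufs3), -0.87 (Ndufa12), -0.76 (Ndufa5), -0.73 (Ndufa4), -0.60 (Ndufa2 and Ndufs6) and -0.55 (Ndufc1). With only unstimulated replicates 1 to 5 as controls, 5 genes were called, and with only replicates 6 to 9, 14. The shares of all genes with these controls are not given here, so these counts are read only beside the 12 of the main fit.

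**Figure D3:**
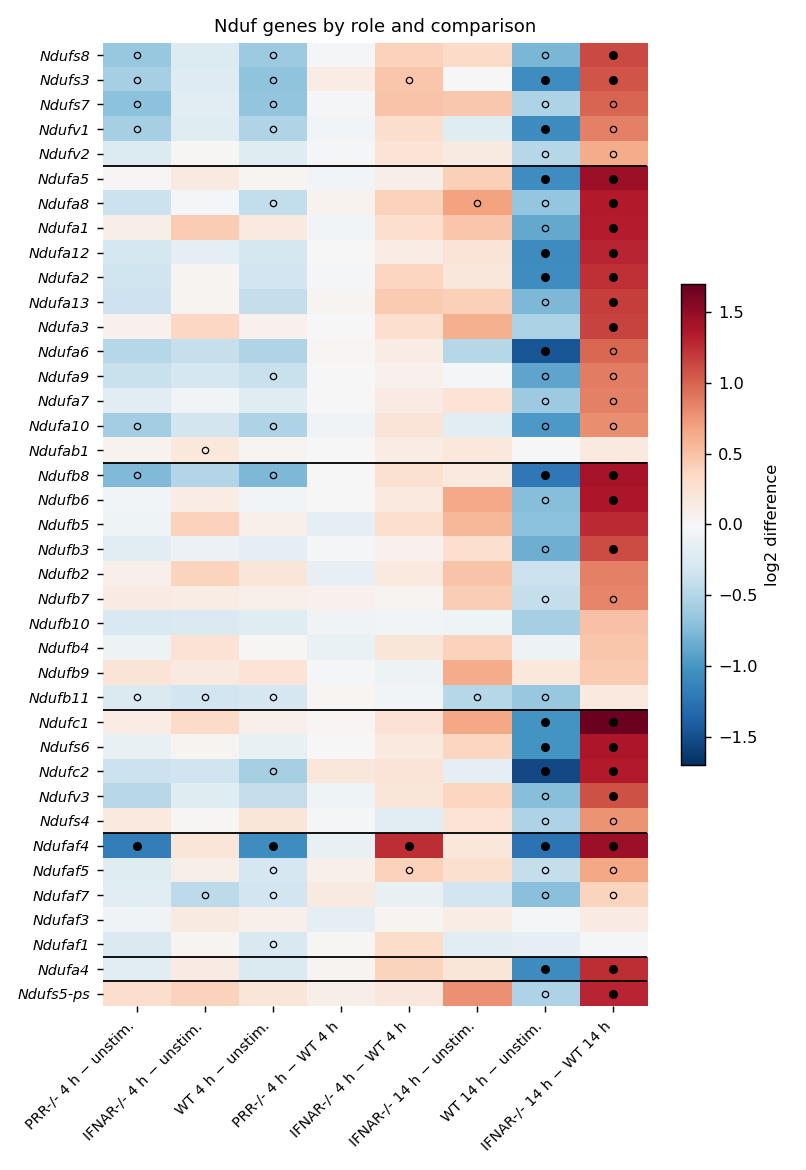
Log2 difference (colour) of each Nduf gene (rows, grouped by role: core, Ndufa series, Ndufb series, other accessory, assembly, Ndufa4, Ndufs5-ps) in 8 comparisons (columns); filled circles mark an adjusted p under 0.05 with at least 2-fold and open circles the adjusted p alone. The WT 14 h column is blue for 37 of the 39 genes, and Ndufaf4 is the single row with filled circles already at 4 h.

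At 4 h, 1 complex I gene passed 2-fold. Ndufaf4 fell by 1.05 ± 0.20 in WT DCs (2.07-fold, adjusted p = 5.56e-05) and by 1.17 ± 0.24 in PRR-/- DCs (adjusted p = 0.000277), and none of the other 38 genes passed 2-fold in either comparison, where 2.39% and 2.42% of all genes were called lower. Its log2 levels were 8.73, 7.66, 8.12 and 8.24 in PRR-/- DCs and 9.84, 9.26, 9.66 and 9.49 in IFNAR-/- DCs. The WT samples at 4 h had 7.81, 8.31 and 8.71, and the unstimulated samples 9.00, 9.22 and 10.14 (lowest, median, highest). In non-normalized signal these were 169.2 to 363.0 in PRR-/- DCs, 548.9 to 912.6 in IFNAR-/- DCs, 176.1 to 342.8 in WT DCs and 611.9 to 1762 in unstimulated DCs.

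All PRR-/- and all WT samples at 4 h lay below all unstimulated samples for Ndufaf4, whereas the IFNAR-/- samples lay within the unstimulated range (0.20 higher on average). IFNAR-/- DCs exceeded WT DCs at 4 h by 1.25 ± 0.24 (2.38-fold, adjusted p = 0.000176), and 1 of the 39 genes was called in this comparison, where 0.822% of all genes were called higher. At 14 h the levels were 9.57, 9.27 and 9.79 in IFNAR-/- DCs and 7.21, 8.18 and 8.83 (lowest, median, highest) in WT DCs, and the WT difference from unstimulated DCs was -1.26 ± 0.21 (adjusted p = 1.33e-05). The 4 h arrays and unstimulated replicates 1 to 5 fell into 3 sets of similar profile, each with samples of all these groups. Within the sets, Ndufaf4 differed between WT and unstimulated DCs by -0.95, -1.13 and -0.95 and between IFNAR-/- and WT DCs by 1.14, 1.35 and 1.18. Leaving out unstimulated replicate 9 gave a WT difference at 4 h of -0.94 and leaving out WT replicate 6 at 4 h gave -0.98, and without PRR-/- replicate 3 the PRR-/- difference was -0.99, each then under 2-fold.

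**Figure D4:**
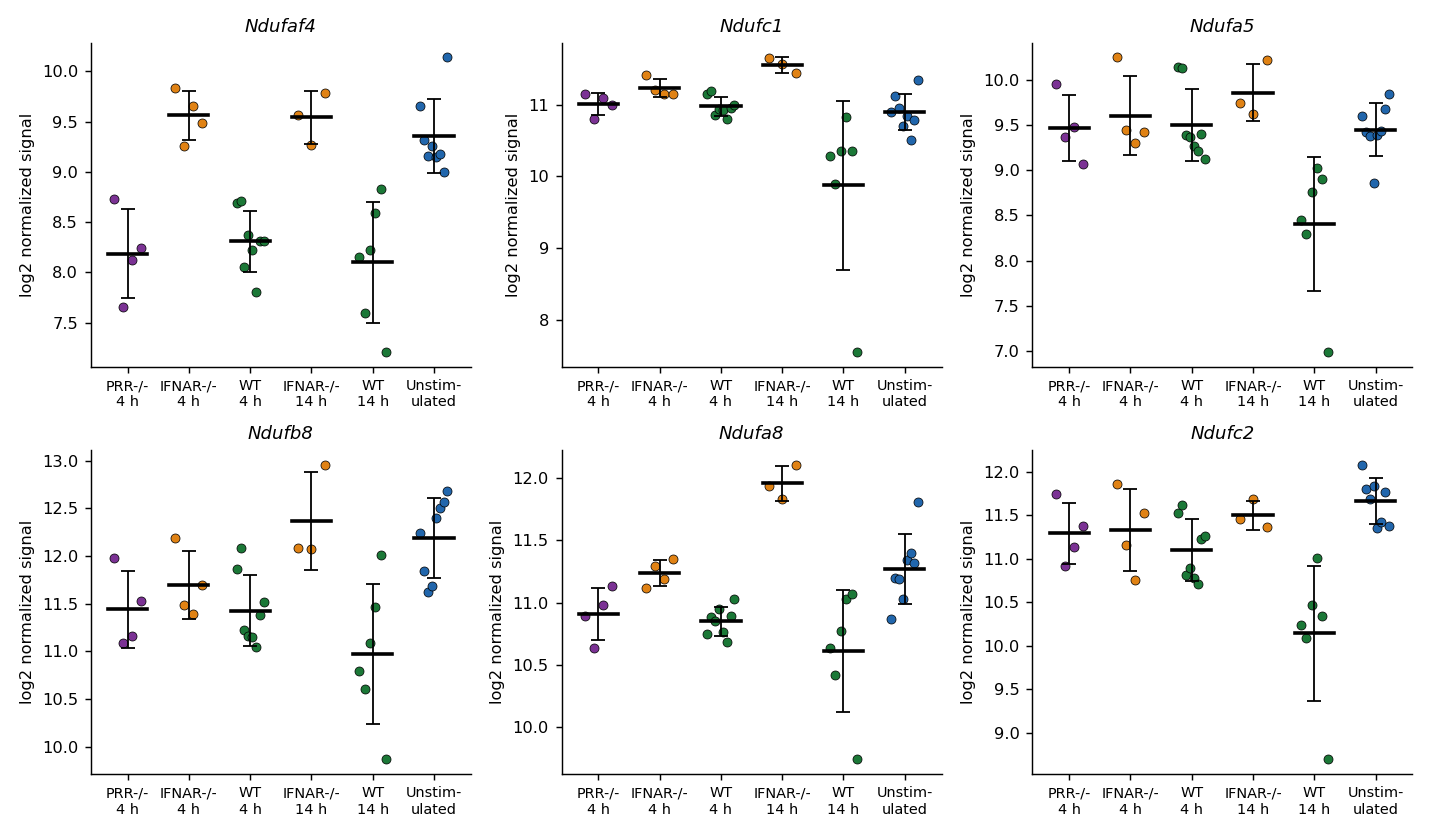
Log2 normalized signal (y axis) of 6 Nduf genes in each sample of the 6 groups (x axis); the line and bar give the mean and SD. Ndufaf4 is low in the PRR-/- and WT groups at 4 h and in WT at 14 h, whereas Ndufc1 in WT DCs is at 10.80 to 11.19 at 4 h and reaches down to 7.56 at 14 h.

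At the adjusted p alone, 14 of the 39 genes were lower in WT DCs at 4 h and 0 higher, against 29.6% of all genes called lower. In PRR-/- DCs, 8 were lower and 0 higher, against 24.2% of all genes. The shares of the complex I genes (14 and 8 of 39) were near those of all genes. Among the core subunits, 4 of the 5 were lower in both, with Ndufs3 at -0.69 ± 0.14 (adjusted p = 0.000108) and Ndufs7 at -0.67 in WT DCs, and Ndufs7 at -0.70 ± 0.20 (adjusted p = 0.00674) and Ndufs8 at -0.65 in PRR-/- DCs. The median over the 39 genes was -0.25 in WT DCs and -0.20 in PRR-/- DCs, with all genes at -0.02 in both. Within the 3 sets the WT median was -0.02, -0.26 and 0.03, so that the shift over all 39 genes was not found in each set, unlike that of Ndufaf4.

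In IFNAR-/- DCs at 4 h, 0 of the 39 genes passed 2-fold against unstimulated DCs, where 1.53% of all genes were called higher and 1.43% lower. At the adjusted p alone Ndufab1 was higher (0.18, 6.97% of all genes), and Ndufaf7 (-0.45 ± 0.12, adjusted p = 0.00745) and Ndufb11 (-0.32) were lower (11% of all genes), with 1 higher and 3 lower at an unadjusted p under 0.05 by limma. In the fit without WT replicate 6 at 14 h, Ndufa1 and Ndufs5-ps were also higher, and the share of all genes in that fit is not given here. The largest difference, that of Ndufb8, was -0.50 with an adjusted p of 0.272. Against WT DCs at 4 h, Ndufs3 (0.47 ± 0.17, adjusted p = 0.0366) and Ndufaf5 (0.39, adjusted p = 0.0115) were higher along with Ndufaf4 at the adjusted p alone, where 16.1% of all genes were called higher, and the median of the 39 genes was 0.21. In the fit without WT replicate 6 at 14 h, which is not compared here but shares the estimate of the spread, 8 genes were higher at the adjusted p alone. The added ones were Ndufa8, Ndufa13, Ndufaf1, Ndufs7 (0.49, adjusted p = 0.00869 against 0.0717) and Ndufs8. The share of all genes in that fit is not given here, and it was 16.1% in the main fit. No excess is therefore read from the 8 genes.

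No complex I gene was called between PRR-/- and WT DCs at 4 h. By limma, 0 of the 39 genes passed the adjusted p, with or without the 2-fold limit (0.302% and 0.583% of all genes). At an unadjusted p under 0.05 the count was 0, and the methods' t-test also called 0. The differences ran from -0.16 for Ndufb5 to 0.19 ± 0.27 for Ndufc2, with a median of 0.00. Ndufaf4 differed by -0.12 on average between these groups.

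Whether the IFNAR-/- minus WT difference grew between 4 h and 14 h was tested as an interaction. The difference was larger at 14 h by at least 2-fold for 5 of the 39 genes and smaller for 0, where 3.85% of all genes were called larger, and 9 were larger at the adjusted p alone (7.67% of all genes). The 5 were Ndufc1 (1.42 ± 0.48, adjusted p = 0.041), Ndufa5 (1.35 ± 0.42, adjusted p = 0.0228), Ndufb6 (1.19 ± 0.33, adjusted p = 0.00993), Ndufa12 (1.16 ± 0.31, adjusted p = 0.00811) and Ndufs5-ps (1.11 ± 0.37, adjusted p = 0.0335). The median was 0.78 for the 39 genes. Without WT replicate 6 at 14 h, 1 of the 5, Ndufa5, stayed past 2-fold (1.07, adjusted p = 0.0234), with the others at 0.96 (Ndufc1 and Ndufa12), 0.93 (Ndufb6) and 0.79 (Ndufs5-ps), where 3.55% of all genes were called larger, 11 genes passed the adjusted p alone (7.54%) and the median was 0.53. Without WT replicate 4 at 14 h, 10 genes were past 2-fold, beside 5 in the main fit, and the share of all genes is not given there. The dimmer probe of Ndufb6 gave an interaction of 0.29 and that of Ndufa5 0.62. For the assembly factors the median interaction was 0.20, and 0 of the 5 passed the adjusted p.

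The other respiratory complexes and further gene lists were measured in the same fits. In IFNAR-/- compared with WT DCs at 14 h, 1 of 3 complex II genes, 3 of 7 complex III genes, 7 of 10 complex IV genes and 7 of 14 ATP synthase genes were higher by 2-fold and none of them lower, with medians of 0.75, 0.79, 1.11 and 0.96. Of all genes, 4.71% were called higher, or 3.57% without WT replicate 6. Named examples are Sdhc of complex II (1.18), Uqcr11 of complex III (1.78), Cox8a of complex IV (1.45) and Atp5g1 of the ATP synthase (1.79 ± 0.30, adjusted p = 2.84e-05). With WT replicate 6 left out the 2-fold counts were 1, 1, 1 and 2, the medians 0.66, 0.68, 0.75 and 0.61, and the 4 named genes at 1.10, 1.32, 1.11 and 1.48.

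The same direction was seen outside respiration. Of 61 cytosolic ribosomal protein genes, 12 were higher in IFNAR-/- than in WT DCs at 14 h by 2-fold and 31 at the adjusted p alone, with a median of 0.73. Without WT replicate 6, 4 were higher by 2-fold and 31 at the adjusted p alone (1 lower), with a median of 0.48. Of all genes, 4.71% and 17.9% were called higher with that sample and 3.57% and 16.3% without it. In WT DCs at 14 h, 21 of the 61 were lower than in unstimulated DCs by 2-fold, with a median of -0.83, beside -0.72 for the Nduf genes. Leaving out replicate 6 gave 10 of the 61 and medians of -0.52 and -0.48. Of all genes, 4.77% were called lower with it and 3.46% without it. Of 13 genes that track mitochondrial content, such as the citrate synthase gene Cs and the import receptor gene Tomm20, 2 were higher by 2-fold between IFNAR-/- and WT DCs at 14 h (4.71% of all genes). They were Slc25a5, an ADP/ATP carrier (1.34, or 1.17 without replicate 6), and Hspd1, a chaperone (1.01 with and without it). The median was 0.29, or 0.21. In WT DCs at 14 h the median of the 13 against unstimulated DCs was -0.01 with and without that sample. Of the 13, 8 were below 0 and 5 above, and 3 were lower at the adjusted p alone (27.7% of all genes). Slc25a5 was at -1.10, or -0.93 without replicate 6. The median of this list ran only from -0.02 to 0 over the unstimulated samples, so a value near 0 does not show an unchanged content.

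**Figure D5:**
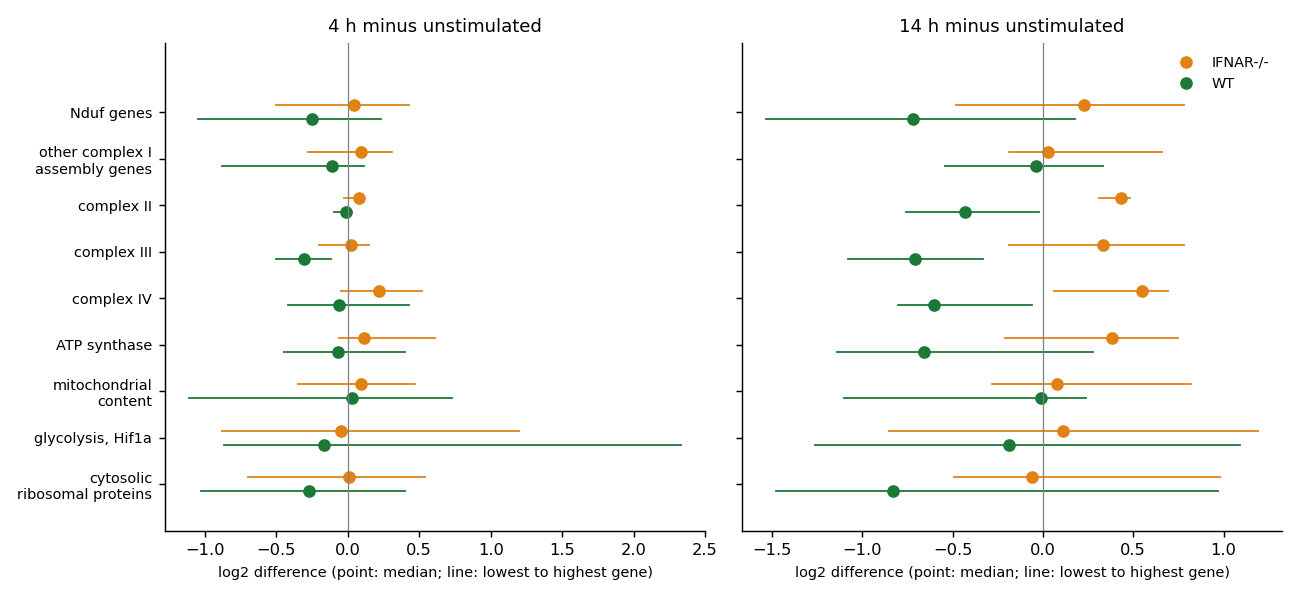
Median (points) and lowest to highest gene (lines) of the log2 difference from unstimulated DCs (x axis) for the Nduf genes and 8 other gene lists (y axis), in IFNAR-/- (orange) and WT (green) DCs at 4 h (left) and 14 h (right). At 14 h the WT medians of the Nduf genes (-0.72), complex III (-0.71) and the cytosolic ribosomal proteins (-0.83) lie left of 0 (-0.48, -0.55 and -0.52 without WT replicate 6), and the list of mitochondrial content is at -0.01, with genes from -1.10 to 0.24.

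Glycolysis genes together with Hif1a, which encodes a transcription factor of the hypoxia response, moved in both directions. In WT DCs at 4 h 3 of the 15 were higher by 2-fold than in unstimulated DCs, among them Pfkp, a phosphofructokinase (2.33 ± 0.18, adjusted p = 1.62e-11), and Hif1a (1.45 ± 0.14, adjusted p = 2.13e-09), where 4.8% of all genes were called higher. At the adjusted p alone 5 of the 15 were higher and 6 lower (16.9% and 29.6% of all genes), and their median was -0.17. Hif1a was lower in IFNAR-/- than in WT DCs by 1.18 ± 0.18 at 4 h (adjusted p = 5.56e-06) and by 0.66 ± 0.20 at 14 h (adjusted p = 0.0118, with a difference of -0.55 without WT replicate 6). At 14 h, Tpi1 (1.76, or 1.68 without WT replicate 6) and Ldha (1.44, or 1.34), both glycolytic enzymes, were higher in IFNAR-/- than in WT DCs, as the Nduf genes were.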

How the data were processed

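RNA of sorted splenic DCs was measured on Illumina mouseRef-8 BeadChips. The authors deposited non-normalized bead intensities as exported with BeadStudio, and for each probe a detection p-value that ranks its signal against the negative control beads. The authors also deposited log2 values made in GeneSpring 10.0, where low signals were raised to background, quantile normalized and centred on the median of all samples. That table served as an alternative, and its values correlated at 0.967 to 0.99 with those made here.

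Each array's signals were raised to its lowest detected signal (74.4 to 107.6), log-transformed (log2) and then set to a common distribution by quantiles across the 36 arrays. Of 25697 probes, 14202 were detected on at least 3 arrays, and the brightest of a gene's probes was kept, which gave 9606 genes. Probes without a gene symbol (1719) were not used. The number of arrays, and not a read depth, limits the precision. Group means were fitted with limma 3.58.1 in R 4.3.3 over all groups, with Benjamini-Hochberg adjustment over the 9606 genes. Genes were called at an adjusted p under 0.05 with at least a 2-fold difference, and the adjusted p alone gave a second count. Fold changes are differences of log2 normalized signal, and understate the change of genes near the floor. The fit was tested on simulated data.

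Members were taken by symbol. Those named are the up to 12 largest differences among the genes called in each comparison, or the 3 largest differences where fewer were called, and the members given sample by sample are mainly the 8 largest at 14 h between IFNAR-/- and WT DCs. Others (such as Ndufv1, Ndufs8, Ndufb5 and Ndufb11) were named after their values were seen, to complete a role or a count. The members, the gene lists and the tests were chosen with earlier results of these data known, so the lists give no independent support. Alternatives changed the normalization, the floor, the probe filter, the choice of probe, the samples fitted, the test (the methods' t-test) and blocks for replicate number or for sets of similar arrays, and left out each sample in turn. Same-numbered samples deviated together in each pair only between PRR-/- or IFNAR-/- DCs at 4 h and unstimulated DCs (correlations of 0.124 to 0.688 and of 0.317 to 0.741), a pairing that rests on the data and not on the labels. Promoter windows came from RefSeq (GRCm38.p6). Scan dates and slides were not given in the sources used here.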

Additional observations from a re-analysis of the deposited data

Results flagged for a closer look

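In 7 of 50 groups of samples examined, the highest or lowest sample lay far from the rest of its group. The genes examined were mainly the 8 largest differences at 14 h between IFNAR-/- and WT DCs, which a low WT sample enlarges. They also share the same samples, so the count cannot be set against a chance rate. In WT DCs at 14 h, replicate 6 was the low sample for Ndufc1 (7.56, next sample 9.89), Ndufa5 (6.99, next 8.29), Ndufb6 (8.78, next 9.95) and Ndufs6 (8.80, next 10.86), all log2 levels. Unstimulated replicate 9 was the high sample for the median of the 39 Nduf genes (0.45 over the unstimulated mean, next 0.07). Ndufa5 was also high in IFNAR-/- replicate 1-2 at 4 h (10.25, next 9.45) and low in unstimulated replicate 5 (8.86, next 9.38).

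The IFNAR-/- minus WT difference was larger at 14 h than at 4 h, by the interaction test, for Ndufc1 (1.42), Ndufa5 (1.35), Ndufb6 (1.19), Ndufa12 (1.16) and Ndufs5-ps (1.11). Without WT replicate 6 at 14 h these were 0.96, 1.07, 0.93, 0.96 and 0.79, each still at an adjusted p under 0.05 in limma. The dimmer probes of Ndufb6 and Ndufa5 gave 0.29 and 0.62 with all samples.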

How the results depend on the processing

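The Nduf median of IFNAR-/- DCs at 4 h against unstimulated DCs, 0.04 in the main fit, changed sign under alternatives. It was -0.02 without IFNAR-/- replicate 1-2, and further values are given below. The median between PRR-/- and WT DCs at 4 h ran from -0.03 to 0.02 with 1 sample left out. Of the values for single named genes 1146 kept their side of the threshold, 117 lost it and 6 gained it. With arrays brought to one median, which moved the median of all genes by -0.28 in WT and -0.26 in PRR-/- DCs at 4 h against unstimulated DCs and by 0.14 in IFNAR-/- against WT DCs at 4 h, the counts in WT and PRR-/- DCs at 4 h were 3 and 2 with medians of -0.47 and -0.54, the medians of IFNAR-/- DCs were -0.10 (4 h) and 0.43 (14 h) against unstimulated DCs and 0.36 against WT DCs at 4 h, and the interaction count was 0. With no normalization between arrays, chosen after seeing the data, the counts were 5 and 6 with medians of -0.63 and -0.66 (all genes -0.44 and -0.38), the IFNAR-/- medians at 4 h were -0.27 against unstimulated and 0.35 against WT DCs (all genes -0.25 and 0.13), and the 14 h count between IFNAR-/- and WT DCs was 30 (all genes 0.18). Fitting only the groups of the comparison gave 6 at 14 h between IFNAR-/- and WT DCs and 2 for the interaction, and the methods' t-test gave 2 at 14 h. The interaction count was 3 with no filter on dim probes, 3 with the mean of a gene's probes and 8 with the sets of similar arrays as a block, under which the IFNAR-/- median at 4 h against unstimulated DCs was 0.16. With only unstimulated replicates 1 to 5, 5 genes were called in WT DCs at 14 h. Without WT replicate 6 at 14 h and unstimulated replicate 9 together, chosen after seeing the data, 3 genes were called against unstimulated DCs and 8 between IFNAR-/- and WT DCs.

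With the replicate number as a block, the count was 0 in WT DCs at 4 h (Ndufaf4 at -0.97), 1 in IFNAR-/- DCs at 14 h against unstimulated DCs, 21 at 14 h between IFNAR-/- and WT DCs, and the median between IFNAR-/- and WT DCs at 4 h was 0.12. Where the numbers paired the samples (PRR-/- or IFNAR-/- DCs at 4 h against unstimulated DCs), the block left the counts at 1 and 0. Elsewhere the labels give no pairing beyond the number. WT and mutant DCs of a time were sorted from mixed chimeras, so some of their samples may share hosts. The labels do not say which, and the main tests did not pair them. Between WT and mutant DCs, 3 of 4 (PRR-/-, 4 h), 1 of 4 (IFNAR-/-, 4 h) and 1 of 3 (IFNAR-/-, 14 h) correlated best with their own number. Against unstimulated DCs these were 3 of 8 (WT, 4 h), 1 of 6 (WT, 14 h) and 0 of 3 (IFNAR-/-, 14 h). Leaving out 1 sample at a time, the counts ran between 0 and 1 in WT and in PRR-/- DCs at 4 h, between 5 and 15 in WT DCs at 14 h, between 8 and 22 between IFNAR-/- and WT DCs at 14 h and between 1 and 10 for the interaction. The counts in this section have no share of all genes beside them and show only how the calls moved from the main fit. The cause of these changes was not tested.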
